A study of Mus musculus with 6 samples.

Results

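Weak SP1 sites deep inside long genes are the 500-bp SP1 sites with a mean signal below 20 whose midpoint lies inside a protein-coding gene of 100 kb or longer and more than 10 kb from the nearest end of any protein-coding gene. The mean signal is the normalized ATAC-seq count averaged over the libraries. The rule was met by 1769 of the 9001 sites in the authors' deposited table (19.7%), and these sites lay in 328 host genes. Open chromatin was mapped by ATAC-seq in ESC, the mouse embryonic stem cell line R1, which is pluripotent, and in neural progenitor cells (NPC) also labelled R1, with 3 libraries of each. In ATAC-seq the Tn5 transposase inserts adapters into open chromatin, so the fragments over a site measure its accessibility. No genotype change or treatment is named for either group, and the labels do not say how the NPC were derived or whether libraries of 1 group were made from separate cultures.

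The transcription factor SP1 recognises GC-rich DNA through its zinc fingers, chiefly the GC box of promoters. Sites far inside a gene body lie away from that gene's outer promoter, and can fall on an intronic enhancer, on an alternative promoter or on DNA with no known role. Very long genes are frequent among those of neurons, where they encode adhesion molecules, ion channels, synaptic scaffolds and cytoskeletal linkers.

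Mean signal and place chose these sites, so both are descriptions here, and the fold changes, which come from the same comparison, are given without a test between classes of sites. Values per library were not analysed here. Each site has the log2 fold change of NPC over ESC, its standard error (SE) and the adjusted p of the authors' deposited table, and a site is called higher or lower where that adjusted p is below 0.05. Mean signal among the sites ranged from 0.579 to 19.7, with a median of 4.34 and quartiles of 2.93 and 7.15. In the authors' deposited table the sites just under the signal limit lay in Rhobtb1 (19.7, log2 fold change 4.67) and Ppm1h (19.7, 2.93), and those just over it in Nme7 (20.1, -4.63) and Armc9 (20.1, 0.49). The site nearest to a gene end lay 10.008 kb away in Fam163a (log2 fold change 0.02 in the authors' deposited table), and the nearest site left out lay 9.95 kb from an end in Zdbf2 (-3.79 in the same deposited table). By host length, the shortest host was Smarcal1 (100.1 kb, log2 fold change -2.44 in the authors' deposited table), and the longest gene left out was Spred2 (99.6 kb, 3.40). Listed sites near the pluripotency markers were mostly lower in NPC, 22 of 29 against 1 higher. Those near the neural progenitor markers Fabp7, Meis1 and Pou3f3 were mostly higher, 9 of 14 against 1 lower. Over all listed sites 32.6% were lower and 22.8% higher. Lower sites also outnumbered higher ones near the glial (4 against 1 of 7), mesenchymal (8 against 2 of 12) and endoderm and mesoderm markers (3 against 0 of 5). These counts leave out part of the sites inside marker genes: the pluripotency marker gene Nr5a2 held 8 weak deep sites, 2 higher and 2 lower. In bulk libraries fewer cells with an open site and less opening per cell cannot be told apart.

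Of the 1769 sites, 32 (1.81%) covered an annotated RefSeq transcription start, and at 24 of these sites the start was an internal start of the host gene itself, 1 start in Ano4 being covered by overlapping sites. Of the 32, 9 were higher in NPC, 4 were lower and 19 were not called, where 22.8% of all listed sites were higher and 32.6% lower. The stretch within 250 bases upstream of each start, as far as it lay inside the site, was searched for the GC box GGGCGG on both strands (its reverse complement is CCGCCC, and overlapping matches were all counted). None of the 13 called sites held those letters there, and 10 of the 19 uncalled ones did. The same counts, 0 of 13 and 10 of 19, were found over the whole 250 bases. Of the 32851 RefSeq starts whose full 250-base window was at hand, 32.7% held the box in it. The median GC content of the stretches inside the sites was 51.2% (40.8 to 66.7) for the called sites and 60.5% (27.6 to 81.2) for the uncalled ones. This split was seen after the values were known and has no test, and a match is only a match of letters.

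Stretches are shown here for 3 called sites with no box in the searched bases and for 3 uncalled sites that held it there 3 times. A called site of Anks1b is also shown, because Anks1b, like Jmjd1c, has a site of each kind. The bases of the sites outside these windows were not searched. They are from RefSeq, build GRCm38.p6 (mm10), written 5′ to 3′ on the strand of the transcript, with GC boxes in capitals. Those of Btbd11 (chr10:85598161-85598410, plus strand), Disp1 (chr1:183147558-183147795, minus strand) and Oprm1 (chr10:6788320-6788569, plus strand) come from called sites. Anks1b has stretches at chr10:90576441-90576690 and chr10:90829404-90829653, both on the plus strand. Those of Jmjd1c (chr10:67126866-67127087, plus strand) and of Gm36388, a non-coding RNA that starts inside Esrrg (chr1:187651847-187652096, minus strand), come from uncalled sites.
Btbd11: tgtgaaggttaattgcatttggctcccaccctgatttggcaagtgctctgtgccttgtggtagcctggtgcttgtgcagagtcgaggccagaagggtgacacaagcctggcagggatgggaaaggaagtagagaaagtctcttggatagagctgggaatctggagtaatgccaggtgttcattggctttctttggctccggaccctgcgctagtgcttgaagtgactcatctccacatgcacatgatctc
Disp1: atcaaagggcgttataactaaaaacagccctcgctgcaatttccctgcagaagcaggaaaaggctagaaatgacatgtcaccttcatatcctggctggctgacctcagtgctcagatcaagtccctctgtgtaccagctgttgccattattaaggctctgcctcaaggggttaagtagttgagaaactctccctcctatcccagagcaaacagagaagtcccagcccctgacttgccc
Oprm1: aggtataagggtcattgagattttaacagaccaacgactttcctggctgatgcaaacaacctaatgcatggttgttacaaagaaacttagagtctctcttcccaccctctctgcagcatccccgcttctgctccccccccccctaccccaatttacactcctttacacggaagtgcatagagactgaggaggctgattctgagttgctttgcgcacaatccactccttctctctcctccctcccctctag
Anks1b, rising site: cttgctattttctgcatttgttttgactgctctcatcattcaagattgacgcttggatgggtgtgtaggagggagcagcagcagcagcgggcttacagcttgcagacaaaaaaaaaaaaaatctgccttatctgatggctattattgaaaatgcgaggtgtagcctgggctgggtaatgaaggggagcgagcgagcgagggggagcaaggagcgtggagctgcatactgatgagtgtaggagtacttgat
Anks1b, uncalled site: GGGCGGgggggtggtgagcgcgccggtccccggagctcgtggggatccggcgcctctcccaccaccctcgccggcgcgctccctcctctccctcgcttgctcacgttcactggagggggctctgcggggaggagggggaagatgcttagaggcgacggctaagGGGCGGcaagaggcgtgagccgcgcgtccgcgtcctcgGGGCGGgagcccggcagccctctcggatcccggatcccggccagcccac
Jmjd1c: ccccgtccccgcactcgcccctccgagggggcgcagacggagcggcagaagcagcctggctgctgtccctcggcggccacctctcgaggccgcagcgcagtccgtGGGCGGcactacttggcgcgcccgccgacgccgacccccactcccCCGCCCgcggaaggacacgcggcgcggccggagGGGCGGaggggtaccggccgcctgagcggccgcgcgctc
Gm36388: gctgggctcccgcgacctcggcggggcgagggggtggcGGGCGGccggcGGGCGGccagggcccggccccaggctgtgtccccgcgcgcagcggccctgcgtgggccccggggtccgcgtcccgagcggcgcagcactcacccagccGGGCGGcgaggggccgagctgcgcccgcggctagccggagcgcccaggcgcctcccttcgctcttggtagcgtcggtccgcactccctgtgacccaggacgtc

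At the internal start of Btbd11, which encodes a BTB-domain protein, the site rose by 3.96 ± 0.70 (SE) on the log2 scale, 15.6-fold, in the authors' deposited table (adjusted p 2.40e-07). Disp1 encodes the dispatched protein that releases hedgehog ligands, and its internal site rose by 2.68 ± 0.64 (adjusted p = 0.000129, both from the authors' deposited table). For the internal start of the opioid receptor gene Oprm1 the authors' deposited table gives a called fall, -1.60 ± 0.66 (adjusted p = 0.0143). Within Anks1b, a postsynaptic scaffold gene, the site whose stretch holds no box was called higher at 1.85 ± 0.81 (adjusted p = 0.0190, both from the authors' deposited table). The Anks1b site whose stretch holds 3 boxes had 0.15 ± 0.37 (adjusted p = 0.693, both from the authors' deposited table). For the Jmjd1c start, in a gene of a Jumonji-domain protein, the value was 0.24 ± 0.65, and for the Gm36388 start -0.06 ± 0.46, in the authors' deposited table. A further internal start of Jmjd1c lay in a site that was higher at 1.52 ± 0.44 (adjusted p = 0.00107, both from the authors' deposited table), and the part of its window inside the site held no box. Called and uncalled sites differ in fold change by how they were chosen, so these values are not compared.

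Across all weak deep sites, 465 were higher in NPC (26.3%, 95% Wilson interval 24.3 to 28.4) and 541 were lower (30.6%, 28.5 to 32.8), and 763 were not called. Over all 9001 listed sites 22.8% were higher and 32.6% lower, and 55.4% were called in either direction. The median log2 fold change was -0.27 in the weak deep sites, with quartiles of -2.383 and 2.1003, and -0.29 over all listed sites. Their called rises had a median of 3.27 on the log2 scale and their called falls a median of -3.17, and all but 2 of each exceeded 1. The Wilson intervals cover counting error over sites, which are not replicates, and 45 of the sites overlap the next. With fold changes centred on the median of all listed sites, a shift of 0.29, and p-values recomputed, the split turned to 425 higher and 356 lower. Over all listed sites the shares in that setting were 23.1% higher and 22.8% lower.

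The plot of classes of sites sets these shares beside the others. Of 2968 weak sites between genes and over 10 kb from any gene end, whose median signal of 4.29 was close to the 4.34 of the deep sites, 20.6% were higher and 37.6% lower, with a median log2 fold change of -1.06. Of 673 weak sites equally deep inside genes under 100 kb, 21.2% were higher and 37.0% lower. Of 806 weak sites within 1 kb of a gene end, where the median signal was 10.02, 16.3% were higher and 23.8% lower. The 73 stronger sites in the same long genes, with a signal of 20 or more, were higher at 41 (56.2%) and lower at 21 (28.8%). These differences were not tested, because signal chose the classes and also sets how often a site can be called.

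**Figure D1:**
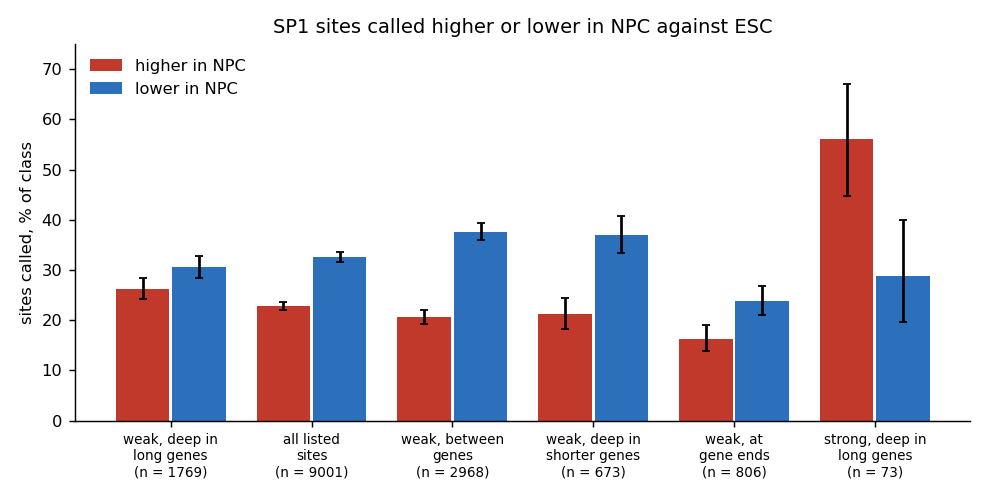
Share of sites called higher (red) or lower (blue) in NPC against ESC, in percent of each class, with 95% Wilson intervals as error bars. The weak deep sites had 26.3% higher and 30.6% lower, and the weak sites between genes 20.6% and 37.6%.

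Within each of the 4 bands of signal from 2 upward, deep sites had a larger share higher and a smaller share lower than sites between genes. Signal chose the sites, so the bands are descriptions and not separate tests. From 3 to 5, 28.2% of 543 deep sites were higher and 36.5% lower, where the sites between genes had 20.4% and 42.7%. From 5 to 10, the shares were 30.3% and 35.4% in 528 deep sites and 25.4% and 45.7% between genes. From 10 to 20, 42.0% of 226 deep sites were higher and 34.1% lower, against 33.4% and 43.6% between genes. Below a signal of 2 only 5 of 150 deep sites were higher and 9 lower.

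Signal limited what could be called. The median SE was 1.60 on the log2 scale below a signal of 2 and 0.61 between 10 and 20, and the smallest called change was 2.89 and 0.72. The largest changes grew with signal, from 3.39 and -3.48 below a signal of 2 to 6.62 and -6.67 between 10 and 20. In the plot of fold change against signal the points end along smooth upper and lower edges. A site under 5, as 1015 of the 1769 were (57.4%), needed a log2 change of at least 1.62 to be called in these data.

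**Figure D2:**
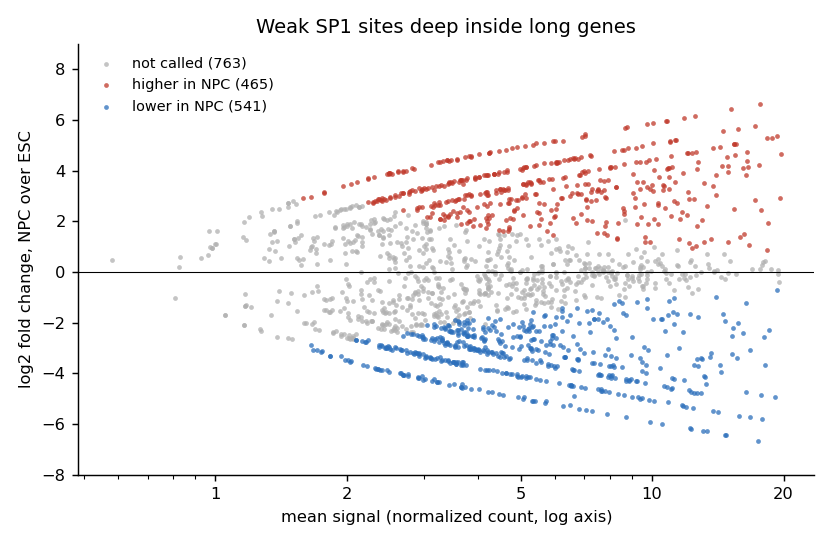
Log2 fold change of NPC over ESC against mean signal (normalized count, log axis) for the 1769 weak deep sites, 465 higher (red), 541 lower (blue) and 763 not called (grey). Called sites leave a grey band around 0 that narrows as signal rises.

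The rises with the smallest adjusted p, taking 1 per host, were led by Rhobtb1, a gene of a BTB-domain protein. Its site, chr10:69254327-69254827 and 37.2 kb from the nearest gene end, rose by 4.67 ± 0.76 (SE) on the log2 scale, 25.5-fold, in the authors' deposited table (adjusted p 1.60e-08). Within Srgap1, a GTPase-activating protein gene of the Slit-Robo pathway, 6.62 ± 1.14 was the rise at a site 56.2 kb deep, per the authors' deposited table. Ppm1h, a phosphatase gene, had 2.93 ± 0.48, and Srgap2, the neuronal relative of Srgap1, 4.24 ± 0.70, in the authors' deposited table. Next in the authors' deposited table came Bcr, a Rac regulator (4.14), and the semaphorin receptor gene Plxnc1 (6.44). Also among the 12 were Adgb, of androglobin (4.38), Pam, of the peptide-amidating enzyme (2.86), Btbd11 (3.96), the nuclear protein gene Aff3 (6.17) and Rnf217 (4.74), on the log2 scale as the authors' deposited table gives it.

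Among the falls, the smallest adjusted p was at Dst, which encodes the cytoskeletal linker dystonin. That site, chr1:34006931-34007431 and 99.2 kb from the nearest end, fell by 3.67 ± 0.59 on the log2 scale, and its adjusted p was 1.64e-08, per the authors' deposited table. The site of Nmnat2, an axonal NAD-synthesising enzyme gene, fell by 6.67 ± 1.14 in the authors' deposited table. Dnah7a, an axonemal dynein gene (-6.42), Cntnap5b, of the neurexin family (-6.42), and Prex2, a Rac activator gene (-4.95), followed in the authors' deposited table. These were followed by the histone deacetylase gene Hdac4 (-6.28), Samd5 (-4.84), the DNA translocase gene Zranb3 (-6.26) and the synapsin gene Syn3 (-3.09) in the authors' deposited table. The gene end nearest to the Syn3 site, 11.2 kb away, is not an end of Syn3. Its nearest annotated start, 37866 bp away, is that of Timp3, so the site is not particular to Syn3. Cdk19, a Mediator kinase gene (-6.19), L3mbtl3, of a methyl-lysine reader (-4.72), and the tensin gene Tns3 (-3.24) completed the 12 in the authors' deposited table. All 24 sites of both lists had a signal between 12.3 and 19.7, near the upper limit of the rule. The rise at Srgap1 (6.62) and the fall at Nmnat2 (-6.67) are the extremes of the signal band from 10 to 20, at the edges described above. The sizes of the largest changes are therefore bound to signal.

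The sites were spread unevenly over hosts. A host held a median of 4 sites, 43 hosts held 1, and 44 hosts with 10 or more held 624 in all. The median host was 169 kb long, and the spacing between neighbouring sites had a median of 27.0 kb. Of 215 hosts with 2 or more called sites, 139 (64.7%) had sites called in both directions. Among the 288 hosts with any call, 54 had rises only and 95 had falls only, while 40 further hosts had no call.

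The 15 hosts with the most sites held 290 of them (16.4%). Anks1b had 28 sites, of which 10 rose and 8 fell. Of the 24 sites of Dst, 5 rose and 13 fell, with a median log2 fold change of -2.39. Agap1, an Arf GTPase-activating protein gene, had 22, of which 7 rose and 2 fell. Ctnna3, of a catenin, had 20, with 8 rises and 3 falls. Of 19 sites each, 7 rose and 6 fell in Nckap5, 4 rose and 9 fell in Utrn, the gene of utrophin, and 9 rose and 4 fell in Grip1, a glutamate receptor scaffold. The neuron navigator gene Nav1 (18 sites, 4 rises, 6 falls) and Dpp10, of a potassium channel subunit (18, 3 and 7), followed. Tmcc3 (17 sites) had 9 rises and 3 falls, and Ank3, of ankyrin-G (17), 4 and 5. Nmnat2 (16) had 6 rises and 8 falls, and Esrrg, an orphan nuclear receptor gene (16), 5 and 1. Each of the 15 hosts had called sites in both directions. Nmnat2 was also densest in sites, with 11.1 per 100 kb of its length beyond 10 kb from its ends.

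**Figure D3:**
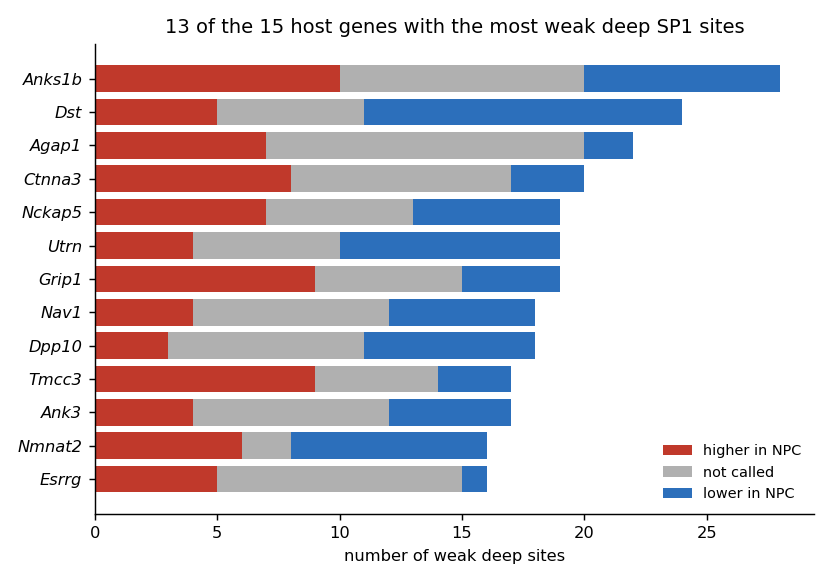
Number of weak deep SP1 sites that were higher (red), not called (grey) or lower (blue) in NPC, for 13 of the 15 host genes with the most sites. Anks1b leads with 28 sites, and every bar holds both colours of call.

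Of 100 hosts with 4 or more called sites, 15 had all their calls in 1 direction, 8 with rises and 7 with falls. These hosts were chosen by their calls, so their directions are descriptions. Fyn, a Src-family kinase gene with roles in myelination and axon growth, had 7 rises among 8 sites. From the 5′ end onward the log2 fold changes at the 8 sites of Fyn were, in the authors' deposited table, 3.51, 1.98, 5.13, 4.63, 1.38, 1.20, 3.49 and 3.49, and that of 1.98 was not called. All 8 lay above 0. A site of Fyn just outside the rule, 9.87 kb from the gene's 3′ end, was called lower, at -2.59 ± 0.90 in the authors' deposited table. The strong site at the 5′ end of Fyn (signal 56.9) had 0.27 ± 0.23 in the authors' deposited table and was not called.

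Rises without a called fall were also found in Znrf3, of a ubiquitin ligase that removes Wnt receptors, where 5 of 7 sites rose and the largest had 6.09 ± 1.15 in the authors' deposited table. Ust, a sulfotransferase gene of matrix polysaccharides, had rises at 5 of 6 sites (median log2 fold change 2.86). Syne1, of the nuclear envelope protein nesprin, rose at 4 of 12. The semaphorin receptor gene Plxna2 rose at 4 of 8, and its 5′ end site of signal 34.7 had -0.03 ± 0.28 in the authors' deposited table. In Srgap2, 4 of 6 sites rose, a pair of them overlapping, while the site at its 5′ end, with a signal of 162, had 0.10 ± 0.16 in the authors' deposited table. Spats2l (4 of 6) and Pam (4 of 5) completed the 8. The strongest site at the 5′ end was itself called higher in Ust (1.03 ± 0.32), Spats2l (1.40 ± 0.47) and Pam (0.70 ± 0.30), and in Syne1 it was at -0.06 ± 0.29 without a call, per the authors' deposited table.

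Falls without a called rise were found in 7 hosts. Rims1, an organiser of the presynaptic active zone, fell at 7 of 11 sites, and its 4 uncalled sites were at -1.64, -1.05, 0.07 and -0.06 in the authors' deposited table. Its site at the 5′ end had a rise of 1.02 ± 0.44 with an adjusted p of 0.0164, both from the authors' deposited table, opposite to the 7 called sites inside the gene. Ano4, an anoctamin gene, fell at 7 of 13 sites, with the largest fall at -4.94 ± 1.23 in the authors' deposited table, and its 5′ end site was at -0.84 ± 0.66 without a call. Clasp1 and Map7, both of microtubule-binding proteins, fell at 6 of 8 and 5 of 6 sites. Enah, a regulator of actin filaments in growth cones, fell at 4 of 4, with log2 fold changes from -4.60 to -3.39 in the authors' deposited table. Cntnap5b fell at 4 of 4 (median -3.52) and the primase subunit gene Prim2 at 4 of 6 (median -3.66).

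**Figure D4:**
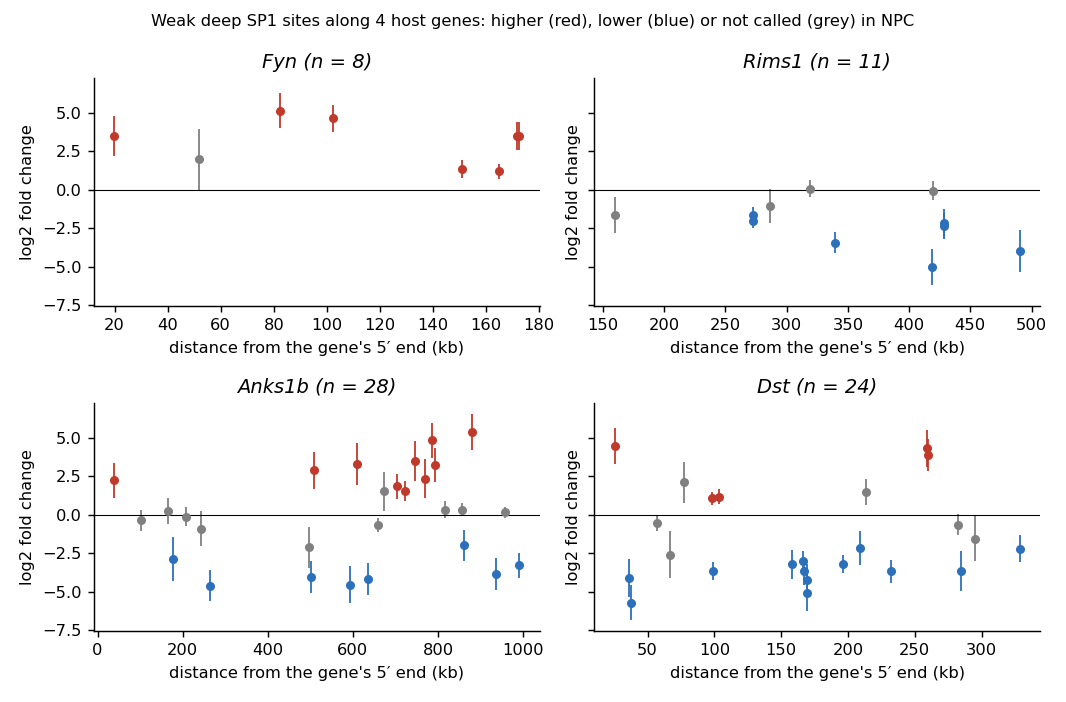
Log2 fold change (points) with SE (bars) of each weak deep site against its distance from the 5′ end of the gene in kb, for Fyn and Rims1, whose calls have 1 direction, and Anks1b and Dst, which hold the most sites. Fyn had 7 rises and Rims1 7 falls, and blocks of like calls alternate in Anks1b and Dst.

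Runs of 4 or more neighbouring sites with the same call, with no other weak deep site of the host between them, numbered 28 in 26 hosts, 11 of rises and 17 of falls. Overlapping sites, which share reads, are counted separately in these runs, and 6 runs hold such a pair; counting each pair once leaves 25 runs of 4 or more. Runs were looked for after the values had been seen and have no test. In Dst 7 falls in a row, or 6 with an overlapping pair counted once, lay between 158 and 209 kb from the 5′ end, with log2 fold changes from -5.09 to -2.14 in the authors' deposited table. Anks1b had 6 rises in a row between 704 and 794 kb from its 5′ end, from 1.52 to 4.83 in the authors' deposited table. Map2, of the dendritic microtubule protein, also had a run of 6 rises, over 184 kb and with values from 2.15 to 5.86 in the authors' deposited table. Runs of 6 falls lay in Clasp1, over 114 kb, and in Tns3, over 66.3 kb. Fyn had a run of 6 rises over 90.0 kb. Epha4, an ephrin receptor gene, had 5 falls in a row within 32.4 kb, and the hedgehog pathway transcription factor gene Gli2 5 rises within 66.0 kb.

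Close neighbours also went opposite ways. In Dst a site that rose by 1.07 ± 0.43 lay 1.31 kb from the leading fall of -3.67 ± 0.59, which lay 3.97 kb from a further rise of 1.18 ± 0.47, in the authors' deposited table. In Gli2 the run of rises was flanked by falls on both sides, -2.32 ± 0.61 and -3.68 ± 0.81 in the authors' deposited table. A rise of 2.88 ± 1.00 and a fall of -3.36 ± 1.12 in Gli2 lay 0.654 kb apart in the authors' deposited table. Btbd11 had 4 falls in a row, from -3.81 to -3.20 in the authors' deposited table, before the rise at its internal start.

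Over all pairs of called sites in 1 host, direction was shared more often at short distance. Of 809 pairs from 0.5 to 50 kb apart, in 177 hosts, 515 (63.7%) had the same direction, and of 1621 pairs farther apart 836 (51.6%) did. Their overall shares of rises and falls correspond to 50.3%. Averaged over hosts, so that hosts with many pairs weigh no more, the shares were 66.0% and 53.9%. By distance the share was 65.4% at 0.5 to 5 kb (28 of 81 pairs were opposite), 64.4% up to 10 kb, 59.0% up to 20 kb and 65.0% up to 50 kb. It was 52.4% at 50 to 100 kb, 53.6% up to 200 kb and 48.8% farther apart. All 27 overlapping pairs, which share reads, had 1 direction and are left out of these shares. Weak sites between genes were paired along each chromosome, so that genes can lie between the sites of a pair. They had 61.3% of 1083 pairs in 1 direction from 0.5 to 50 kb, where their overall shares correspond to 54.3%. Their share was 60.7% from 50 to 100 kb and 58.3% from 100 to 200 kb. Pairs reuse the same sites, so these percentages are descriptions without a test.

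**Figure D5:**
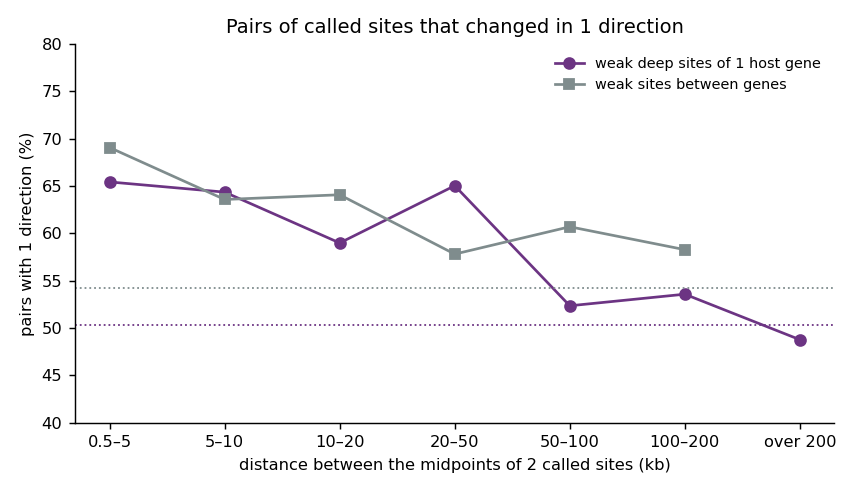
Percent of pairs of called sites that changed in the same direction, by the distance between their midpoints in kb. Circles are weak deep sites of 1 host, and squares are weak sites between genes, paired within a chromosome. Dotted lines give the percent to which the overall shares of rises and falls correspond, 50.3% and 54.3%, and the weak deep sites lie between 48.8% and 53.6% beyond 50 kb.

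Lists of host genes by function were compared with the shares over all 9001 listed sites, 22.8% higher and 32.6% lower. The lists were chosen with earlier results of these data known, some genes stand in more than 1 list, and no list was tested. Small GTPase regulators had 33 of 103 sites higher (32.0%) and 23 lower (22.3%) in 14 hosts (median log2 fold change 0.29), and 10 of those hosts had more rises than falls. Among them Agap1 had 7 rises and 2 falls, Srgap1 4 and 3, while Rabgap1l, a Rab regulator gene, had 1 and 7, and Rgl1, a Ral activator gene, 1 and 3. The leading site of Rabgap1l was a fall, at -5.80 ± 1.14 in the authors' deposited table. Receptors, kinases and phosphatases had 38 rises (29.5%) and 37 falls (28.7%) among 129 sites (median 0.09). Their hosts with the most sites were Plcl1, of a phospholipase C-like protein (3 rises, 2 falls), Epha4 (2 and 6), Ppm1h (3 and 2) and Fyn (7 and 0).

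Ion channel genes had 18 of 94 sites higher (19.1%) and 31 lower (33.0%), near the shares over all listed sites, with a median of -0.64. Of these, Dpp10 had 3 rises and 7 falls, Ano4 none and 7, the calcium channel gene Cacna1e 3 and 2, and Nkain2, of a sodium pump-interacting protein, 2 and 4. Among 182 sites of synapse genes 43 rose (23.6%) and 58 fell (31.9%), near the shares over all listed sites (median -0.14). Of their 22 hosts 9 stood on the side of rises and 12 on that of falls. Anks1b and Grip1 stood on the first side, and Syn3 (2 rises, 5 falls) and Rims1 on the other. The leading fall counted for Syn3 is the site whose nearest start is that of Timp3. Nos1ap, a nitric oxide synthase adaptor gene, had 4 rises and 2 falls. Among 170 sites of axon guidance and adhesion genes 41 rose (24.1%) and 52 fell (30.6%), also near the shares over all listed sites (median -0.21). There, the tenascin-R gene Tnr had 4 rises and 5 falls, the semaphorin receptor gene Nrp2 1 and 5, Ctnna3 8 and 3, and Nav1 4 and 6.

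Cytoskeleton and motor genes had 73 rises (31.1%) and 75 falls (31.9%) among 235 sites, a share of falls near that over all listed sites, with Dst and Utrn on the side of falls and Ctnna3 and Nckap5 on that of rises. Transcription and chromatin regulators had 44 rises (30.8%) and 46 falls (32.2%) among 143 sites. Among them were Esrrg (5 rises, 1 fall), the methyltransferase gene Smyd3 (6 and 4) and Gli2 (6 and 5, all 11 of its sites called). Among 116 sites of genes listed under the extracellular matrix and its enzymes 26 rose (22.4%) and 34 fell (29.3%). Their share of rises was near that over all listed sites. Their median was 0.27, of opposite sign to the balance of calls. Mgat5, a glycosyltransferase gene, rose at 7 of 12 and fell at 2, Tnr had 4 rises and 5 falls, and Hmcn1, of hemicentin, 3 and 4. Among 29 sites in 5 hosts listed as ubiquitin ligase, protease and autophagy genes 5 rose (17.2%) and 10 fell (34.5%). Dpp10, named above as a potassium channel subunit gene and also counted there, held 18 of these sites and 7 of the falls. The list leaves out the ubiquitin ligase gene Znrf3, with 5 rises and no fall among 7 sites, so its balance is not that of ligase or protease genes as a whole. In that list Hecw2, a ubiquitin ligase gene, had 1 rise and 2 falls, Trhde, a peptidase gene, 1 rise and no fall, and Hace1 no call.

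The site at the 5′ end of the host was compared with the sites inside it. A RefSeq strand was at hand for 264 of the 328 hosts, and part of them had a listed SP1 site within 1 kb of the 5′ end, the strongest being used. In 37 hosts whose 5′ site was higher, 68 of 235 deep sites were higher (28.9%) and 59 lower (25.1%). In 27 hosts whose 5′ site was lower, 12 of 100 deep sites were higher and 29 lower. Both of these shares lie below those over all listed sites, 22.8% higher and 32.6% lower. In 111 hosts whose 5′ site was not called, 199 of 677 deep sites were higher (29.4%) and 211 lower (31.2%). The remaining 153 hosts, with no listed 5′ site or no strand, had 24.6% higher and 32.0% lower. The median signal of the deep sites was 3.92, 3.65, 4.59 and 4.40 in these 4 groups of hosts.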

How the data were processed

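ATAC-seq compared 3 NPC with 3 ESC libraries. The submitters' processing notes name build mm10, BWA 2.1, Picard 2.23.8, MACS2 2.2.7, SAMtools 1.9 and DESeq2 (its version is not given in the sources used here), without roles or settings. The sources used here do not give how SP1 sites were chosen or whether a Tn5 offset was applied. The file headers give, per site, the mean signal (normalized count), the log2 fold change with its standard error, and p-values, raw and adjusted, all deposited by the authors. NPC over ESC is read from the deposited table's name. The listed sites lie on chromosomes 1, 10 and the start of 11. Depth per library is unknown, so no test between libraries was run. Dividing each fold change by its standard error gave p-values at least as large as the deposited ones at all 1769 sites (median ratio 2.46). Fold changes of sites with few reads in 1 cell type depend on the authors' fit. If libraries of a group share a culture, p-values measure technical spread only.

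Gene spans, strands and promoter sequences came from RefSeq tables of GRCm38.p6. Site coordinates are printed as deposited, and whether they count from 0 or 1 is not stated. Of the sites, 9 lay inside more than 1 protein-coding gene, 4 of them inside 2 long genes, and each went to the longest gene. Exons, introns and UTRs were not analysed here. Python 3.11.15, pandas 2.3.3 and SciPy 1.17.1 were used, and the member assignment was tested on simulated data. The members and lists were chosen with earlier results of these data known. Named were the 12 rises and 12 falls of smallest adjusted p (1 per host), the 15 hosts with the most sites, hosts with 4 or more called sites all in 1 direction, and up to 4 hosts per list; a few of these are not reported here. Runs, GC boxes, 5′ end groups and the other named hosts (Map2, Btbd11, Gli2's neighbours) were chosen after the values were seen.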

Additional observations from a re-analysis of the deposited data

How the results depend on the processing

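No paired analysis was possible because the table gives no values per library; for the same reason no library could be left out. The share of weak deep sites higher in NPC, 26.3%, became 24.0% with a signal below 10, 19.4% at an adjusted p below 0.01, 21.5% with recomputed p-values, 24.0% with centring and recomputed p-values together, 39.6% with 1 site per host (that of smallest adjusted p, which favours called sites) and 33.8% with a signal of 5 or more. The share lower, 30.6%, became 20.3% at an adjusted p below 0.01, 24.1% with recomputed p-values, 20.1% with both, 48.2% with 1 site per host and 35.0% with a signal of 5 or more. The median log2 fold change, -0.27, became -1.65 with 1 site per host and changed sign to 0.0205 with centring, by the construction of that setting. Against recomputed p-values alone, centring raised the share higher and lowered the share lower. The counts, 465 and 541, became 343 and 359 at an adjusted p below 0.01. The shares over all listed sites at that limit are not given here. With recomputed p-values the counts became 381 and 426, where 18.8% of all listed sites were higher and 26.5% lower. With centring as well they became 425 and 356, and over all listed sites the shares were then 23.1% and 22.8%. The other settings moved the shares to between 25.4% and 27.3% higher and between 29.7% and 32.4% lower, and the median to between -0.36 and -0.11. These were other limits of signal, distance and host length, a minimum fold, 1 site per group of overlapping sites and each chromosome left out. Settings added after the data were seen left out sites at annotated starts, left out the 15 hosts with the most sites, or measured distance to the end of any RefSeq gene. Low signal limits single sites most: below a signal of 2, 14 of 150 were called.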

Other observations

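Position inside the host was described beyond the rule. By host length, the 362 sites in hosts of 200 to 300 kb had 34.3% higher and 26.5% lower, where those in hosts of 100 to 200 kb had 25.2% and 31.9%, and those in hosts of 300 to 500 kb 23.4% and 32.1%. Along the gene, only sites of hosts with a RefSeq strand, 264 of 328, could be placed. Of 414 sites between 50 and 75% of the way from the 5′ end, 31.4% were higher and 22.7% lower. Of 340 sites farther on, 20.9% were higher and 32.9% lower. Of 317 sites in the first 25%, 25.2% were higher and 32.8% lower. From 25 to 50%, 27.2% of 386 sites were higher and 33.4% lower. By distance to the nearest gene end, 24.3% were higher and 34.2% lower from 10 to 25 kb, and 26.3% and 28.1% beyond 200 kb. None of these differences was tested. On chromosome 1, 25.8% of 977 weak deep sites were higher and 31.2% lower, against 23.1% and 33.6% of all its listed sites. On chromosome 10 the shares were 26.3% and 29.7% of 727, against 21.2% and 32.0%. On chromosome 11 they were 33.8% and 30.8% of 65, against 31.7% and 27.4%, so rises outnumber falls there over all listed sites too.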
